A study of Mus musculus with 9 samples.

Results

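The mRNAs of 10 histone genes were followed in mouse oocytes arrested at metaphase II, where an ovulated egg waits for fertilisation. They were the linker histone genes H1foo and H1f0, the H3.3 genes H3f3a, H3f3b and H3f3c, the H2A.Z genes H2afz and H2afv, and H2afx, H2afy and H2afj. H3f3c, an intronless copy of H3f3a annotated as a processed pseudogene, is counted with the H3.3 genes here by likeness of sequence only. The genes were chosen by symbol, and all 10 were found among the 22526 gene rows of the deposited table. Oocytes of ICR mice, an outbred strain, came from an NMN group, an aged group and a young group, with 3 libraries each. NMN, nicotinamide mononucleotide, is a precursor of the coenzyme NAD, and the series asks whether giving it counters the decline of oocytes with maternal age. The labels give the NMN group only as supplemented. They give neither the age of the mice of any group in weeks or months, nor whether the NMN mice were aged, nor the dose, the number of oocytes in a library or the mice behind it. P-values therefore measure the spread between libraries, which may be technical.

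Most histone mRNAs are made while DNA is copied and end in a stem-loop in place of a poly(A) tail, whereas the genes studied here mostly encode replacement variants, whose polyadenylated mRNAs can be made outside S phase. Oocytes no longer copy their DNA and store maternal mRNA for use after fertilisation. H1foo is the linker histone of the oocyte and early embryo, and H3.3 is the H3 form that is laid down in chromatin without DNA synthesis, also in the oocyte and in the male pronucleus.

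Values are FPKM, read fragments scaled to the length of the transcript and to the size of the library, so genes can be set side by side per length. Steps between low values put the depth of a library at 16.28 M to 19.25 M reads (M, mega), and 3 reads on a 1 kb transcript would give 0.156 to 0.184 FPKM, a floor that covers counting error only. Libraries were made by Smart-seq2, which starts reverse transcription at poly(A), so mRNA without a tail, or with a short one, may be under-represented. Whether a lower value means less RNA in each oocyte or fewer oocytes with the RNA cannot be told apart in these libraries.

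All 12 oocyte markers were listed, with summed FPKM of 8006 to 9716 in NMN, 9306 to 10671 in aged and 7131 to 8509 in young libraries. Over the 11 that were tested, the median log2 difference was -0.42 for NMN against aged, 0.16 for NMN against young and 0.62 for aged against young, and Zp3, a zona pellucida glycoprotein gene, was the 1 marker called, higher in aged than in young libraries by 1.06 ± 0.22 on the log2 scale (adjusted p = 0.0410 in limma). Without aged replicate 2, Zp3 missed the threshold (0.93, adjusted p = 0.0572), and the medians of the markers were -0.30 for NMN against aged and 0.58 for aged against young. That library stood apart. Its 12 listed markers of cumulus and granulosa cells, the somatic cells around the oocyte, summed to 21.4 FPKM with 1 of them at 0, against 3.69 and 3.89 in the other aged, 3.41 to 4.84 in NMN and 5.84 to 7.31 in young libraries, where 6 to 9 were at 0. Aged replicate 2 held 6.37 FPKM of Ptx3, 3.17 of Inha, 2.31 of Fst and 1.08 of Tnfaip6, all of them at 0 in the other 8 libraries. Cyp19a1, which made up most of the sum elsewhere, was not high there, at 3.03 FPKM against 3.26 and 3.66 in the other aged, 3.05 to 4.16 in NMN and 5.27 to 6.21 in young libraries, and Lhcgr was the marker at 0. The 4 listed blood cell markers summed to 0.692 to 2.52 in NMN, 0.937 to 1.34 in aged and 0.406 to 1.05 FPKM in young libraries. The part of cumulus RNA, or of the shift in the oocyte markers, in the results on histone genes was not tested, and values without aged replicate 2 are given beside the results that it moves most.

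The coding sequences bear on how far reads of the H3.3 genes can be assigned. The first 150 bases from the start codon are therefore shown for the 3 genes (GENCODE M21 transcripts, build GRCm38, all on the minus strand, H3f3a on chromosome 1, H3f3b on chromosome 11 and H3f3c on chromosome 2). Capitals mark the bases at which H3f3a and H3f3c differ, and in H3f3b the bases that differ from H3f3a.
H3f3a: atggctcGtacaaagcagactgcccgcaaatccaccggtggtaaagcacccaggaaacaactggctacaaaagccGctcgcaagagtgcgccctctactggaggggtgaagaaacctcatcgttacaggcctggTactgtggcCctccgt
H3f3c: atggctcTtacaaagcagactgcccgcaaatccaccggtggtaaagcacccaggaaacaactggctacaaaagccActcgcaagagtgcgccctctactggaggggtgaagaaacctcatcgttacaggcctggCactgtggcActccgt
H3f3b: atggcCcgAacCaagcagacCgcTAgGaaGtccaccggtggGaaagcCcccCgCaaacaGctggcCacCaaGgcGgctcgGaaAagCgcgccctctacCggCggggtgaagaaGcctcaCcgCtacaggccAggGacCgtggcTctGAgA
Over the 411 bases of the coding sequence H3f3a and H3f3c differ at 4 positions, G8T, G76A, T135C and C144A, counted from 1 at the A of the start codon with the base of H3f3a first. They are 99.0% identical, with an unbroken identical run of 267 bases. H3f3a and H3f3b differ at 95 positions (76.9% identity), and their longest identical run is 23 bases. A read from the coding part of H3f3b can thus be told from those of H3f3a and H3f3c in most places. A read from the coding part of H3f3a often cannot be told from one of H3f3c. The longest coding transcripts of H3f3a and H3f3b have 2841 and 2514 nt, against 411 nt for H3f3c. These identities cover the coding sequence only, and not reads from the rest of the longer transcripts.

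The ends of the transcripts bear on whether oligo(dT) captures them. A script searched the longest coding transcript of each gene, on the sense strand only, for the histone stem-loop, written as GGNNC, then TTTTN, then AGNNCC with no gap. It occurred in 13 of 7967 tested genes (0.163%). Among the 10 genes only H2afx held it. Of Cenpa, Hist1h1a, Hist1h1c, Hist1h2aa and Hist1h2ba, searched beside them, Hist1h1c, a linker histone gene, did. Both are shown with the stem-loop in capitals.
H2afx: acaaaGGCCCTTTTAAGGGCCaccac
Hist1h1c: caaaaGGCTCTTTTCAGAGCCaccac
In H2afx the stem-loop starts at base 547 of 1384 and 822 bases follow it, and in Hist1h1c it starts at base 705 of 1560 with 840 bases after it. Both annotated transcripts therefore run on well past the stem-loop. The search cannot find a stem-loop that lies beyond the annotated end of a transcript. Those of Hist1h1a, Hist1h2aa and Hist1h2ba are 741, 390 and 384 nt long, so a missing match does not show that these mRNAs lack it. The share of 0.163% has the same limit.

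The last 100 bases were searched for the polyadenylation signal AATAAA, its variant ATTAAA and the cytoplasmic polyadenylation elements TTTTAT and TTTTAAT. Such elements are known for lengthening poly(A) tails of stored mRNAs during oocyte maturation. The 30-base windows below are from the ends of the mRNAs that the values turn on, with the searched motifs in capitals.
H1foo: gcTTTTATtgtctaataagctgtcacaatg
H2afv: taTTTTATtatggaagttctgacaaatgca
H2afx: aaTTTTATTAAAggatcgtttggttttgtt
H3f3b: caAATAAActagtaagtttggagttttttt
H1f0: aactttaaAATAAAactggaaaggaaaaaa
The last 100 bases of H1foo, H2afv and H2afx held TTTTAT, as did those of 16.7% of 7967 tested genes, while AATAAA was found in 68.1% and ATTAAA in 21.99%. H1foo and H2afv also held AATAAA in their last 100 bases, outside the windows shown. In H2afx TTTTAT and ATTAAA overlap. TTTTAAT was found in the last 100 bases of 6.40% of the tested genes and of none of the histone genes followed here. A match is a description of the letters and not of a working site.

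The 10 mRNAs spanned more than 4 orders of magnitude. Mean FPKM over the 9 libraries was 7129 for H1foo and 918 for H3f3b. H2afx (28.4), H2afz (18.8), H1f0 (18.1) and H3f3c (13.2) came next, with ranges over the libraries that overlapped each other, so their order was not settled. H2afv averaged 1.94 FPKM, H3f3a 0.881, H2afj 0.879 and H2afy 0.284, and the ranges of H3f3a and H2afj lay across each other. Each family with several genes thus had 1 dominant mRNA, H1foo among the linker histones, H3f3b among the H3.3 genes and H2afz among the H2A.Z genes.

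**Figure D1:**
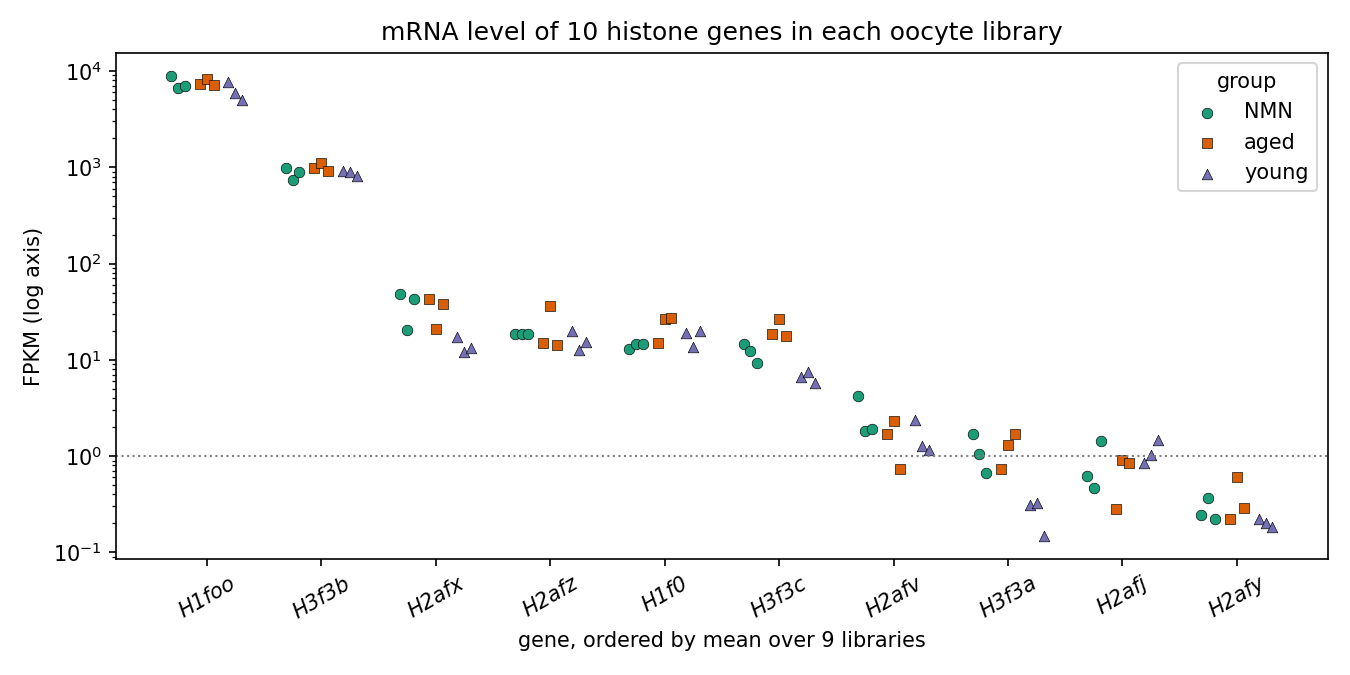
FPKM (log axis) of the 10 histone genes in each of the 9 libraries, coloured by group, with genes ordered by their mean over all libraries. H1foo lies between 5063 and 8888 FPKM and H3f3b between 747 and 1116, while H2afx, H2afz, H1f0 and H3f3c share one range and H2afy stays below 1.

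H1foo (ENSMUSG00000042279, chromosome 6) had the third highest FPKM of all genes in each of the 9 libraries. It had 8888, 6710 and 7026 FPKM in NMN libraries, 7389, 8228 and 7225 in aged libraries and 7650, 5985 and 5063 in young libraries. The 3 groups overlapped, with young replicate 1 inside the range of the aged libraries and young replicate 3 the lowest of all. H1foo alone made up 2.23 to 2.82% of the summed FPKM in NMN, 2.34 to 2.498% in aged and 1.68 to 2.46% in young libraries. Of the FPKM listed for 7 linker histone genes, 99.3 to 99.6% belonged to H1foo in every group.

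Group means of H1foo were 7541 ± 1177 FPKM in NMN, 7614 ± 538 in aged and 6233 ± 1311 in young libraries (SD, n = 3 each). None of the 3 differences passed the test in limma across 9168 genes with Benjamini-Hochberg adjustment. The log2 difference was 0.24 ± 0.18 (SE) for aged against young (adjusted p = 0.514), with a 95% interval of 0.897 to 1.56 in fold. Between NMN and aged libraries it was -0.02 ± 0.18 (adjusted p = 0.984), with an interval of 0.7495 to 1.31 in fold, and for NMN against young 0.23 ± 0.18 (adjusted p = 0.782; 0.887 to 1.54 in fold). Changes of H1foo mRNA above 1.56-fold in either direction lie outside these intervals.

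H1f0 (ENSMUSG00000096210, chromosome 15), the replacement linker histone of resting and differentiated somatic cells, was at 12.8, 14.4 and 14.6 FPKM in NMN libraries, 14.8, 26.5 and 27.3 in aged libraries and 19.0, 13.5 and 19.7 in young libraries. The NMN and aged groups did not overlap, but aged replicate 1 lay just above NMN replicate 3, while aged and young libraries overlapped. In limma the log2 difference for NMN against aged was -0.62 ± 0.23 with an adjusted p of 0.374 (unadjusted 0.0244), so it was not called. It was -0.56 (adjusted p = 0.335) without aged replicate 2. For aged against young the value was 0.28 ± 0.23 (adjusted p = 0.559; 0.23 without aged replicate 2) and for NMN against young -0.33 ± 0.23 (adjusted p = 0.756).

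H3f3b (ENSMUSG00000016559), one of the H3.3 genes with introns, carried nearly all FPKM of the H3.3 family. It had 981, 747 and 894 FPKM in NMN libraries, 991, 1116 and 912 in aged libraries and 909, 896 and 812 in young libraries. As deposited, every aged library was above every young one, by as little as 912 against 909 FPKM, and NMN libraries spread across both groups. The log2 difference for aged against young was 0.14 ± 0.16 (adjusted p = 0.674 in limma), with an interval of 0.866 to 1.40 in fold. It was -0.20 ± 0.16 (adjusted p = 0.663; 0.685 to 1.11 in fold) for NMN against aged, and -0.06 ± 0.16 (adjusted p = 0.916; 0.754 to 1.22 in fold) for NMN against young.

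H3f3a, H3f3b and H3f3c together summed to 760 to 997 FPKM in NMN, 931 to 1144 in aged and 818 to 916 in young libraries. H1foo stood at 7.86 to 9.06 times the FPKM of H3f3b in NMN libraries, 7.37 to 7.92 times in aged and 6.24 to 8.42 times in young libraries, so the ratio of the dominant linker mRNA to the dominant H3.3 mRNA overlapped between groups.

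H3f3c (ENSMUSG00000082029), an intronless copy of H3f3a, was the only member called in the main fit, as higher in aged than in young libraries. GENCODE M21 annotates it as a processed pseudogene with 1 transcript of 411 nt. It had 14.6, 12.5 and 9.27 FPKM in NMN libraries, 18.5, 26.3 and 17.5 in aged libraries and 6.69, 7.41 and 5.81 in young libraries. The groups did not overlap in any pair, with aged libraries highest, NMN libraries between and young libraries lowest. At the estimated depth these values stand for about 100.9, 95.9 and 63.0 reads in NMN, 132, 176 and 120 in aged and 46.0, 52.9 and 46.0 in young libraries, so counting error is small beside the differences.

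The group means of H3f3c were 12.1 ± 2.69 FPKM in NMN, 20.8 ± 4.80 in aged and 6.64 ± 0.802 in young libraries (SD, n = 3 each). It rose in aged against young libraries by 1.44 ± 0.21 on the log2 scale (adjusted p = 0.0107 in limma), or 2.71-fold with an interval of 1.97 to 3.73. Without aged replicate 2 the value was 1.33 (adjusted p = 0.0167). The call was lost without young replicate 2 (1.52, adjusted p = 0.0510) and without young replicate 3 (1.37, adjusted p = 0.0663). Between NMN and aged libraries the log2 difference was -0.72 ± 0.21 (adjusted p = 0.227, unadjusted 0.0057; -0.62 with an adjusted p of 0.234 without aged replicate 2) and for NMN against young 0.71 ± 0.21 (adjusted p = 0.350, unadjusted 0.00613), neither called.

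H3f3a (ENSMUSG00000060743), the other H3.3 gene with introns, was low, and in young libraries near the floor given for a 1 kb transcript. It was at 1.68, 1.05 and 0.673 FPKM in NMN libraries, 0.741, 1.30 and 1.70 in aged libraries and 0.307, 0.328 and 0.148 in young libraries. All 3 young libraries were below all others, while NMN and aged libraries shared one range. The log2 difference on the log2(FPKM + 1) scale, which understates changes at such levels, was 0.79 ± 0.23 for aged against young (adjusted p = 0.121, unadjusted 0.00678) and 0.72 ± 0.23 for NMN against young (adjusted p = 0.418, unadjusted 0.0113). Between NMN and aged it was -0.07 ± 0.23 (adjusted p = 0.948). None was called. With a pseudocount of 0.1 the differences were 1.82 (adjusted p = 0.110) for aged against young and 1.69 (adjusted p = 0.377) for NMN against young. H3f3a reached 1 FPKM in 4 libraries, none of them young, so it entered the test through the aged and NMN libraries alone.

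**Figure D2:**
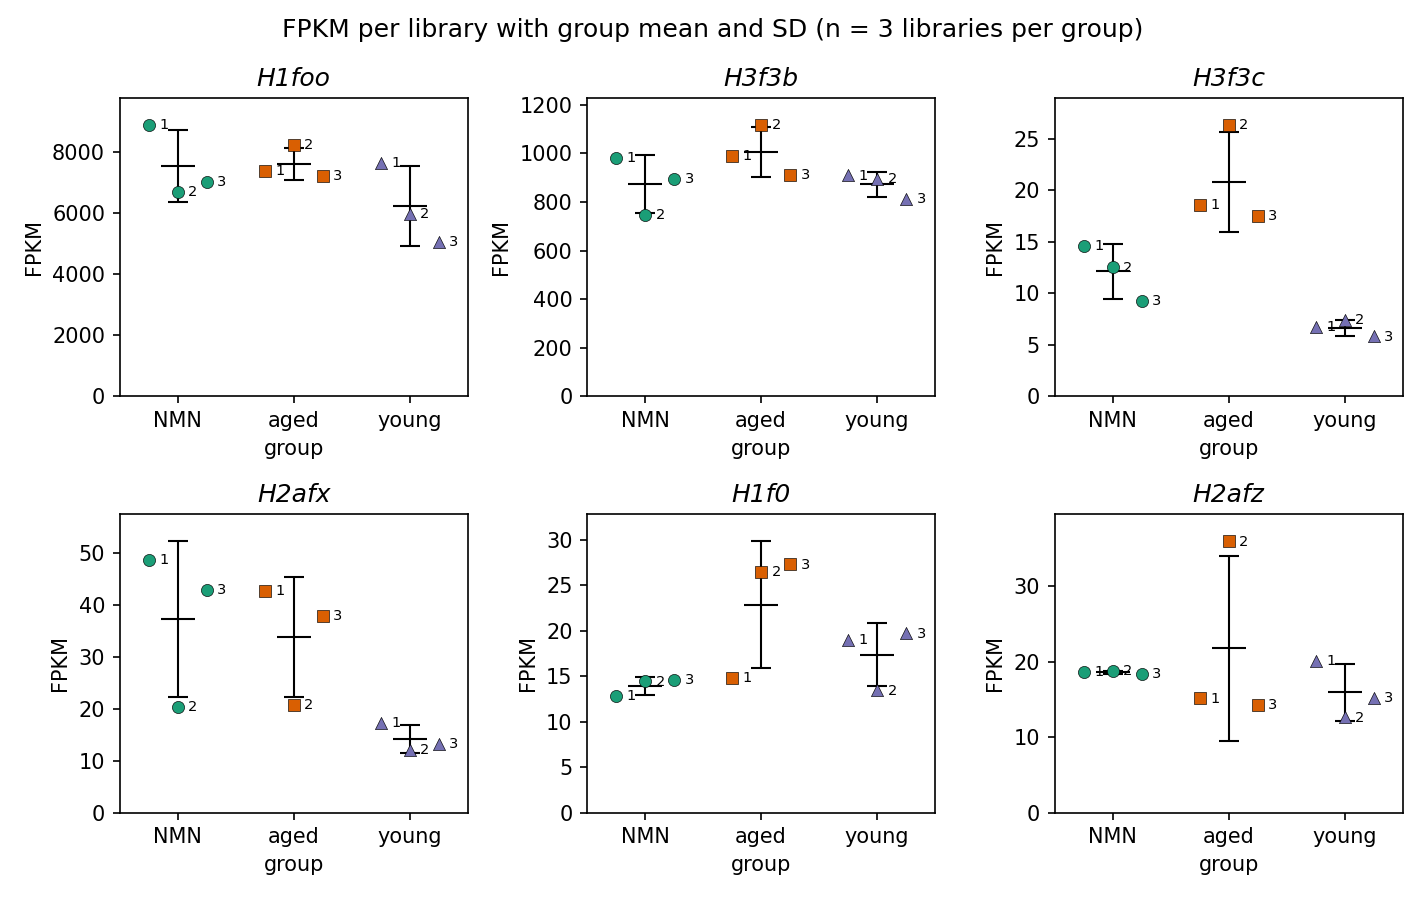
FPKM per library (points, numbered by replicate) of H1foo, H3f3b, H3f3c, H2afx, H1f0 and H2afz in the NMN, aged and young groups, with the group mean and SD (n = 3 libraries each). H3f3c has 3 separate groups with aged libraries at 17.5 to 26.3 FPKM, H2afx is lowest in young libraries at 12.0 to 17.3, and H1foo overlaps between groups.

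Because H3f3a and H3f3c share most letters of the coding sequence, the FPKM listed under either may belong in part to the other or to further copies. Their match spans 411 bases, while the longest coding transcript of H3f3a has 2841 nt. A search of GENCODE M21 transcripts found 14 other genes at 95% identity or more to H3f3a over at least 300 bases, of which 9, H3f3c included, were in the table. H3f3a and these 9 summed to 23.7, 23.3 and 18.2 FPKM in NMN libraries, 28.1, 40.6 and 26.98 in aged libraries and 12.7, 12.1 and 11.5 in young libraries. The summed values kept the groups apart, also with aged replicate 2 left aside. H3f3c, itself apart between the groups, is the largest piece of each sum, so this is no separate result. The means were 21.7 ± 3.07, 31.9 ± 7.57 and 12.1 ± 0.578 FPKM (SD, n = 3 each) in the NMN, aged and young groups. The 8 copies other than H3f3a and H3f3c summed to 7.39, 9.77 and 8.26 FPKM in NMN, 8.86, 13.0 and 7.75 in aged and 5.68, 4.34 and 5.57 in young libraries. The young libraries were lowest in that remainder too, and NMN and aged libraries overlapped. Which of these genes the reads came from cannot be told apart in these files.

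**Figure D3:**
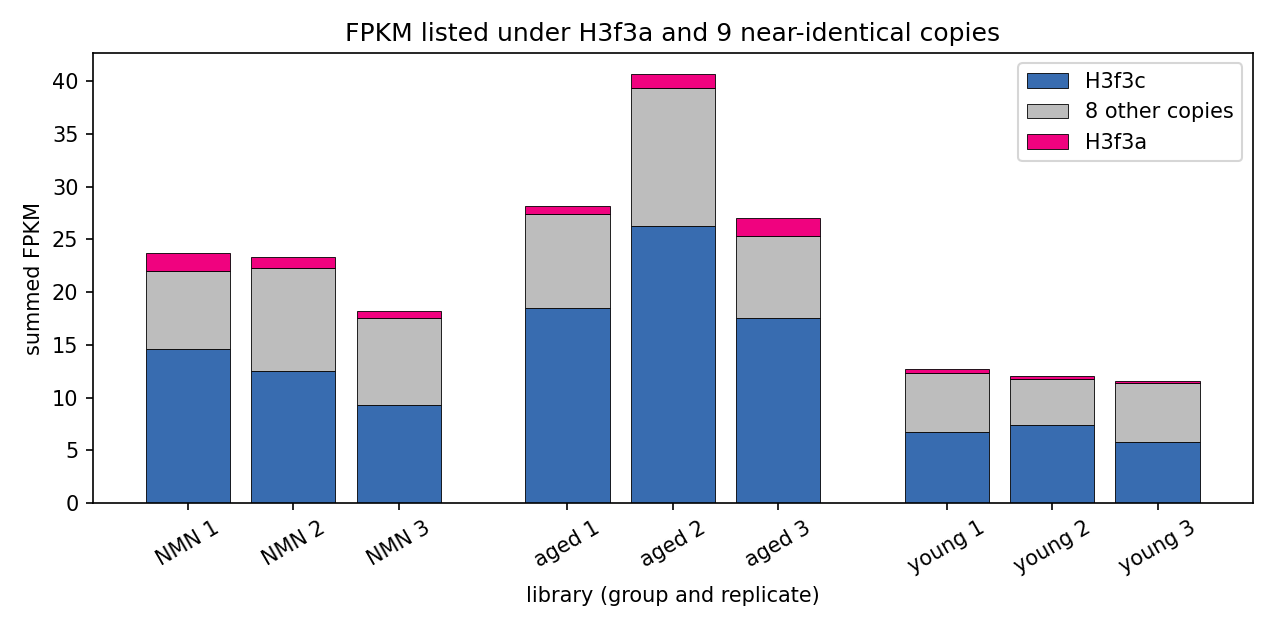
Summed FPKM of H3f3a, H3f3c and the 8 other copies of H3f3a at 95% identity or more, stacked per library, with NMN libraries left, aged in the middle and young right. The total is 18.2 to 23.7 FPKM in NMN, 26.98 to 40.6 in aged and 11.5 to 12.7 in young libraries, and H3f3c is the largest piece in each.

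H3f3b has 2 copies at 95% identity or more, both in the table and annotated as processed pseudogenes. Gm6485, at 98.4% identity, was listed at 7.45, 4.63 and 4.82 FPKM in NMN libraries, 14.2, 15.3 and 10.7 in aged libraries and 9.40, 5.76 and 2.72 in young libraries. Aged libraries were highest there, and NMN and young libraries overlapped. Gm37486, at 96.8% identity, was listed at 6.02, 3.303 and 4.48 FPKM in NMN, 5.13, 6.67 and 5.04 in aged and 4.43, 2.84 and 2.82 in young libraries, where NMN libraries overlapped both other groups. H3f3b itself was at 747 to 1116 FPKM.

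H2afz (ENSMUSG00000037894, chromosome 3) encodes the first H2A.Z form, a variant placed around start sites of transcription. It had 18.6, 18.7 and 18.4 FPKM in NMN libraries, 15.1, 35.9 and 14.3 in aged libraries and 20.04, 12.6 and 15.2 in young libraries. Aged replicate 2 alone was high, and the other 8 libraries lay between 12.6 and 20.04 FPKM. The log2 difference for aged against young was 0.26 ± 0.28 (adjusted p = 0.660 in limma) and -0.08 (adjusted p = 0.883) without that library. NMN against aged gave -0.08 ± 0.28 (adjusted p = 0.948) and 0.26 (adjusted p = 0.554) without it, and for NMN against young 0.18 ± 0.28 (adjusted p = 0.871). No direction can be given for H2afz between aged and either other group, since 1 library set it. H2afz has 2 copies at 95% identity or more, both annotated as processed pseudogenes. Neither was in the table, and Gm8203 was identical to H2afz over 387 bases.

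H2afv (ENSMUSG00000041126) encodes the second H2A.Z form and had 4.19, 1.83 and 1.93 FPKM in NMN libraries, 1.70, 2.33 and 0.735 in aged libraries and 2.34, 1.27 and 1.145 in young libraries. NMN replicate 1 was highest and the groups overlapped. Its log2 difference was -0.06 ± 0.30 for aged against young (adjusted p = 0.935; 95% interval -0.73 to 0.61), 0.49 ± 0.30 for NMN against aged (adjusted p = 0.568) and 0.43 ± 0.30 for NMN against young (adjusted p = 0.755). The intervals for H2afz and H2afv are too wide to show that the groups have equal levels.

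H2afx (ENSMUSG00000049932, chromosome 9) encodes H2A.X, whose phosphorylated form marks DNA double-strand breaks. It had 48.7, 20.3 and 42.9 FPKM in NMN libraries, 42.8, 20.8 and 37.8 in aged libraries and 17.3, 12.0 and 13.2 in young libraries. Each NMN and each aged library was above each young one, and replicate 2 was the lowest of its group in all 3 groups. Means were 37.3 ± 15.0, 33.8 ± 11.5 and 14.2 ± 2.77 FPKM (SD, n = 3 each) in the NMN, aged and young groups. With 1 transcript of 1384 nt, this is about 525 to 1132 reads in NMN, 468 to 1025 in aged and 289 to 400 in young libraries.

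H2afx did not pass the test in any comparison. The log2 difference was 1.09 ± 0.36 for aged against young (adjusted p = 0.153, unadjusted 0.0128; 95% interval 0.29 to 1.90) and 1.20 ± 0.36 for NMN against young (adjusted p = 0.363, unadjusted 0.00745; interval 0.40 to 2.01). The difference for NMN against aged was 0.11 ± 0.36 (adjusted p = 0.945; 0.619 to 1.89 in fold). Its sign changed without aged replicate 2, to -0.26 (adjusted p = 0.704 in limma). Without aged replicate 2, the library with cumulus markers, the value for aged against young was 1.47 with an adjusted p of 0.0417, past the threshold. With library quality weights in limma it was 1.44 (adjusted p = 0.0051) for aged against young and 1.36 (adjusted p = 0.0333) for NMN against young. H2afx had 19 copies at 90% identity or more, 4 of them in the table, and none at 95%.

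H2afj and H2afy were at the bottom of the range. H2afj (ENSMUSG00000060032), an H2A variant gene, was at 0.617, 0.468 and 1.42 FPKM in NMN libraries, 0.284, 0.906 and 0.852 in aged libraries and 0.849, 1.04 and 1.48 in young libraries, with overlapping groups. It reached 1 FPKM in 3 libraries, none of them aged, so it entered the test through NMN and young libraries alone. Its log2 difference was -0.39 ± 0.25 for aged against young (adjusted p = 0.445), 0.12 ± 0.25 for NMN against aged (adjusted p = 0.899) and -0.27 ± 0.25 for NMN against young (adjusted p = 0.796). H2afy (ENSMUSG00000015937), the gene of macroH2A1, a variant with a large extra domain that is found on the inactive X chromosome, was at 0.244, 0.369 and 0.222 FPKM in NMN, 0.220, 0.604 and 0.291 in aged and 0.220, 0.203 and 0.183 in young libraries. It did not reach the minimum of 1 FPKM in 3 libraries and was not tested. Its highest value was in aged replicate 2.

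Of the 10 genes, 9 were tested. For aged against young, 1 of the 9 was called, H3f3c, where 2.18% of all 9168 tested genes were called in either direction and 1.27% as higher. In 4 of the 9 (H3f3a, H3f3b, H3f3c and H2afx) every aged library was above every young one, which held for 12.6% of all tested genes, and 3 of the 9 had an unadjusted p under 0.05, against 18.3% of all. The median log2 difference was 0.26 over the 9 and -0.05 over all tested genes. H3f3a entered the test only through libraries in which it was high, so its place in these counts was favoured by the filter. Without H3f3a, 3 of 8 were apart, 2 of 8 had an unadjusted p under 0.05 and the median was 0.25. H2afj entered the test through NMN and young libraries only. It adds to none of the counts called, apart or under an unadjusted p of 0.05, but its differences are part of the medians in each comparison. H3f3a and H3f3c count as separate genes here although their reads may be shared.

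Between NMN and aged libraries, limma called 0 of the 9, with 2 at an unadjusted p under 0.05 (H1f0 and H3f3c). Of all tested genes 0.218% were called and 11.3% had an unadjusted p under 0.05. The same H1f0 and H3f3c were lower in every NMN library than in every aged one, a pattern of 6.51% of all tested genes. The median was -0.07 over the 9 and 0.02 over all. For NMN against young, 0 of 9 were called, with 3 at an unadjusted p under 0.05 (H3f3a, H3f3c and H2afx), against 0.0764% called and 8.13% with an unadjusted p under 0.05 among all genes. These 3 were higher in every NMN library than in every young one, as were 9.58% of all tested genes, and the medians were 0.23 and -0.00. Without H3f3a, 2 of 8 (H3f3c and H2afx) were apart, 2 of 8 had an unadjusted p under 0.05, and the median was 0.20. The 3 comparisons share libraries in pairs, so their values are not independent.

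**Figure D4:**
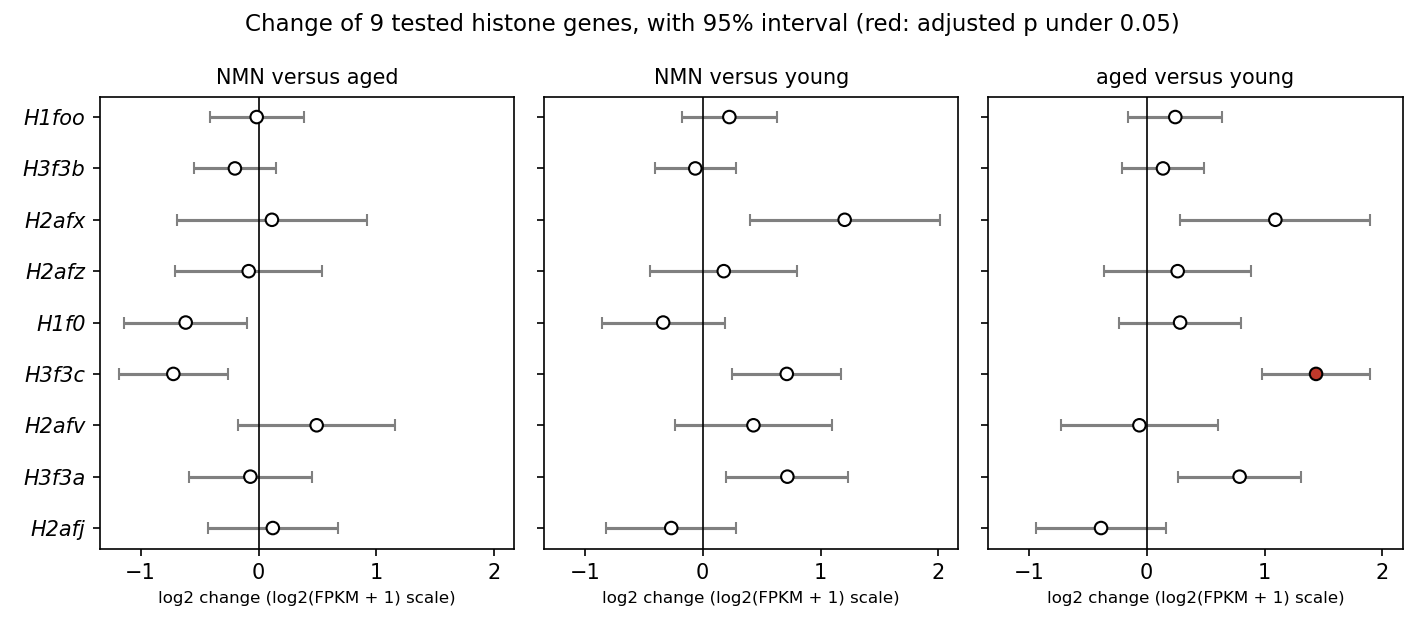
Log2 difference of the 9 tested histone genes, with 95% intervals, in panels for the NMN group against aged libraries, the NMN group against young libraries and the aged group against young libraries (log2(FPKM + 1) scale; red marks an adjusted p under 0.05). H3f3c in aged against young, at 1.44, is the only red point, and the intervals of H1foo and H3f3b are the narrowest.

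The genes whose levels over the 9 libraries were most like those of H1foo were Lman1, a cargo receptor of the secretory pathway (Pearson r = 0.979), Kdm6b, a histone H3 lysine demethylase (0.945), and Cdk2ap2 (0.944). Lman1 had 33.7, 25.3 and 26.97 FPKM in NMN, 27.2, 32.5 and 27.1 in aged and 29.6, 21.96 and 20.1 in young libraries, with NMN replicate 1 highest and young replicate 3 lowest as for H1foo. Those most like H3f3c were Med6, a subunit of Mediator (0.975), Ankrd36 (0.971) and Nusap1, a spindle protein gene (0.970). Med6 had 61.2, 52.1 and 49.5 FPKM in NMN libraries, 64.2, 88.8 and 69.7 in aged and 30.3, 31.5 and 29.1 in young libraries. The correlations run over 9 libraries that also share differences between groups and in scaling, and these genes are the extremes of all those tested.

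Other histone genes were low beside H1foo and H3f3b. Of 12 further variant histone genes 5 were in the table and 2 were tested. Cenpa, the H3 variant of centromeres, had 28.4, 22.9 and 23.9 FPKM in NMN libraries, 26.4, 32.0 and 22.5 in aged and 23.5, 20.97 and 15.7 in young libraries, with a log2 difference of 0.35 ± 0.19 for aged against young (adjusted p = 0.352 in limma). Hist1h2aa, a germline H2A gene, ranged over 0.823 to 6.86 FPKM in NMN, 2.31 to 3.70 in aged and 1.60 to 4.75 in young libraries. Neither was called in any comparison.

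Of the 67 replication-dependent histone genes in the annotation, 34 were in the table and 5 were tested, and limma called none of the 5 in any comparison. At an unadjusted p under 0.05 there was 1 in aged against young, 1 in NMN against aged and 0 between NMN and young libraries, beside 18.3%, 11.3% and 8.13% of all tested genes. The 34 together summed to 20.6 to 59.9 FPKM in NMN, 24.0 to 50.3 in aged and 20.1 to 30.9 in young libraries, less than the FPKM listed for H3f3b alone. Priming at poly(A) may under-represent mRNAs that end in a stem-loop, and genes absent from the table are not in the sum. The sum is thus no measure of these mRNAs in the oocyte. Hist1h1a, a linker histone gene, had 30.6, 7.004 and 9.14 FPKM in NMN libraries, 10.8, 24.8 and 10.5 in aged and 10.3, 8.69 and 7.50 in young libraries, with 1 high library in each of the NMN and aged groups. Hist3h2ba, Hist2h4 and Hist1h3e did not exceed 4.36 FPKM in any library.

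Hist1h1c, whose transcript with a stem-loop and a long end is shown above, had 15.1, 9.67 and 15.1 FPKM in NMN libraries, 4.07, 7.36 and 7.39 in aged and 10.1, 12.8 and 7.16 in young libraries. NMN libraries were all above aged ones, and young libraries overlapped both. The log2 difference was 0.99 ± 0.26 for NMN against aged (adjusted p = 0.181, unadjusted 0.0034), -0.66 ± 0.26 for aged against young (adjusted p = 0.215) and 0.33 ± 0.26 for NMN against young (adjusted p = 0.782).

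Among 20 genes that deposit H3.3 or other H3 forms in chromatin, 18 were tested, and 2 rose and 0 fell in aged against young libraries, where 1.27% of all tested genes were called as higher. Their median was -0.00 on the log2 scale. Atrx, the remodeller that works with Daxx to place H3.3 at repeats and telomeres, had 51.7, 32.2 and 38.8 FPKM in NMN libraries, 47.3, 80.3 and 56.4 in aged and 24.0, 31.1 and 30.2 in young libraries. Aged libraries were above young ones and overlapped the NMN libraries, and the rise against young was 0.99 ± 0.22 (adjusted p = 0.0455 in limma). That call was lost when any one of 8 libraries was left out, with adjusted p up to 0.143, and it held only without NMN replicate 1 (0.0471).

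Mis18a, which prepares centromeres for new Cenpa, had 3.61, 3.16 and 3.17 FPKM in NMN libraries, 6.27, 9.21 and 8.60 in aged and 3.32, 2.11 and 2.54 in young libraries. The aged libraries stood above all 6 others. Mis18a rose in aged against young by 1.25 ± 0.19 (adjusted p = 0.0129), and the difference for NMN against aged was -1.04 ± 0.19 (adjusted p = 0.0710), not called. The rise was 1.22 (adjusted p = 0.0196) without aged replicate 2, but missed the threshold without aged replicate 3 (1.18, adjusted p = 0.0567), young replicate 2 (1.148, 0.0791) or young replicate 3 (1.24, 0.0711), and also with no low-value filter (adjusted p = 0.0514). In NMN libraries limma called 0 of the 18 against aged ones (4 at an unadjusted p under 0.05, against 11.3% of all genes, median 0.15) and 0 against young ones (0 at an unadjusted p under 0.05, against 8.13% of all genes, median 0.16).

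Of 20 genes that handle H2A.Z, H2A and H2B, 19 were in the table and 17 were tested, and limma called 0 in each comparison. An unadjusted p under 0.05 was reached by 4 between aged and young, 2 between NMN and aged and 0 between NMN and young libraries, with medians of 0.08, 0.03 and 0.16. All tested genes reached it in 18.3%, 11.3% and 8.13% of cases, so the counts lie near the background or below it. Ruvbl2, an ATPase of the complexes that exchange H2A.Z, had 24.5, 22.6 and 22.6 FPKM in NMN libraries, 39.8, 44.5 and 34.9 in aged and 21.5, 22.03 and 10.8 in young libraries. The aged libraries were above all others, with a log2 difference of 1.08 ± 0.25 against young (adjusted p = 0.0527) and -0.74 ± 0.25 for NMN against aged (adjusted p = 0.306). Against young libraries the differences in aged libraries were 1.05 for Dmap1 (adjusted p = 0.0972), -0.52 for Ruvbl1 (0.225) and 0.43 for Yeats4 (0.257), which encode further subunits of such complexes. Without aged replicate 2 they were 0.78, -0.33 and 0.31.

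Of 15 genes that process histone mRNA, 14 were in the table and 12 were tested, and limma called 0 in each comparison. An unadjusted p under 0.05 was reached by 2 between aged and young, 2 between NMN and aged and 1 between NMN and young libraries, with medians of -0.05, -0.02 and -0.07. The shares over all tested genes were 18.3%, 11.3% and 8.13%, close to these counts. Lsm10, part of the U7 particle that cuts stem-loop histone mRNAs, had 22.6, 12.6 and 17.4 FPKM in NMN libraries, 22.5, 42.7 and 21.9 in aged and 15.9, 13.9 and 11.3 in young libraries. Its difference for aged against young was 0.91 ± 0.25 (adjusted p = 0.101), and 0.68 (adjusted p = 0.163) without aged replicate 2. For Cpsf2, a subunit of the cleavage complex, that difference was -0.78 ± 0.24 (adjusted p = 0.136; -0.52 without that library), for Eri1, an exonuclease that trims histone mRNA ends, -0.38 ± 0.20 (0.349), and for Npat, an activator of histone gene transcription, 0.30 ± 0.18 (0.411).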

How the data were processed

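RNA of 9 libraries of metaphase II oocytes was sequenced after Smart-seq2, per the labels' protocols. The sample descriptions name an MGISEQ-2000, and the series' design text an Illumina platform. The authors deposited 1 table of FPKM, although its name calls it raw counts. Bowtie2 2.2.5, RSEM and build mm9 are named in the submitters' processing notes, and the annotation, the strand of counting and any filter are not given in the sources used here. Symbols for 22487 identifiers (99.8%) and all sequences came from GENCODE M21, on GRCm38, so no coordinates are given. H1f0, H3f3a, H2afx, H2afy and H2afj overlap a gene on the opposite strand, and without strand their reads cannot be told apart.

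Depth came from genes with 1 transcript over 1500 nt, whose low values were whole multiples of 1 read, within 0.02 reads, in 96.6 to 97.7% of cases. FPKM were divided by trimmed-mean factors (30% by ratio, 5% by level), and a gene was tested if 3 or more libraries reached 1 FPKM (9168 genes). Then log2(FPKM + 1) was fitted in limma 3.58.1 (R 4.3.3) with group means over all 9 libraries, trend and robust moderation. Two-sided p-values were adjusted by Benjamini-Hochberg over these 9168 genes and called below 0.05. Overlap between groups was read from FPKM as deposited. The steps were tested on simulated data.

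The 10 genes and the lists were chosen with earlier results of these data known. All 10 were described. Of each other list, called genes were named, otherwise up to 4 with the smallest p for aged against young, and for other histones up to 6 with the highest FPKM. Chi-square per degree of freedom between libraries of a group was 19.2 to 139, so no library's values repeat another's within counting noise. Whether libraries share a pool of oocytes was not tested. The main fit paired no libraries in any comparison, and a replicate block was run only as an alternative. Same-numbered libraries were taken as possible pairs where the 3 correlations of their deviations were all over 0.1. NMN and young libraries met this (0.497, 0.119 and 0.142). Aged and young did not (-0.34, -0.27 and 0.31), nor did NMN and aged (-0.37, -0.36 and 0.20). The labels tie the numbers to no animal or day. Alternatives were other scalings, another pseudocount, other filters, quality weights, a replicate block, 2-group fits and leaving out each library.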

Additional observations from a re-analysis of the deposited data

How the results depend on the processing

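For aged against young, 200 genes and 1 histone variant gene were called. The numbers were 31 and 0 with no low-value filter, 906 and 3 with library quality weights, and 20 to 210 and 0 to 2 when 1 library was left out (lowest without young replicate 2, highest without aged replicate 2). The gene count was 97 with a minimum of 10 FPKM, 73 with a replicate block and 132 with 2 groups only. For NMN against aged, 20 genes were called, against 9 with no filter, 3 with a minimum of 10 FPKM, 163 with quality weights, 6 with 2 groups only and 5 to 26 when 1 library was left out. For NMN against young, the only comparison that met the rule for possible pairs, 7 genes were called in the unpaired main fit, and 0 with the replicate block. The count was 3 on FPKM as deposited, 0 with no filter, 1 with a minimum of 10 FPKM, 73 with quality weights (1 of them a histone variant gene, H2afx), 17 with 2 groups only and 1 to 14 when 1 library was left out. The block changed no call of a histone variant gene in any comparison. Where fewer genes are tested or libraries are left out, the adjustment and the error change by construction, and the cause of the other shifts was not tested.

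The call of H3f3c for aged against young held in 14 of 17 alternatives. Besides the leave-one-out fits given with it, it was lost with no filter (adjusted p = 0.0514). H3f3a was called there with quality weights (0.90, adjusted p = 0.0261). No log2 difference of a histone variant gene that was called under any setting changed sign. Some that were never called did so. For aged against young, leaving out 1 library gave -0.078 to 0.46 for H2afz and -0.22 to 0.19 for H2afv. For NMN against aged the ranges were -0.26 to 0.46 for H2afx, -0.12 to 0.043 for H1foo, -0.23 to 0.10 for H3f3a, -0.043 to 0.25 for H2afj and -0.28 to 0.26 for H2afz, and for NMN against young -0.13 to 0.011 for H3f3b. Quality weights gave 0.20 for H2afz and -0.074 for H2afx for NMN against aged. Quantile normalisation sets H1foo equal in all libraries by construction, because its rank is 3 in each. With 3 libraries a group an exact permutation test of 1 gene cannot give a p below 0.1. The FPKM of H3f3a, H2afj and H2afy are low, and their reads were not estimated because each has several annotated transcripts.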
